A study of Mus musculus with 16 samples.

Results

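Car6, Ppef1, Avil, Siglecg, Ppp1r16b, Cdsn and Tmem171 are 7 genes with low counts in vehicle-treated p53-/-; Myc hepatoblasts and much higher counts in cells kept in sorafenib. Their group means were 0 to 48.1 normalized counts in DMSO. In sorafenib they were 18.1 (Tmem171 at 48 hours) to 5903 (Cdsn at 7 days). They were chosen by their measured rise, as genes among the largest increases under sorafenib at 48 hours or 7 days, so their differences between sorafenib and DMSO are given as a description and carry no test. They are 7 of 40840 genes in the count table, and all 7 were among the 20444 genes with at least 10 counts over all libraries. Their levels were followed in every library to describe how lasting each difference was, and genes related to them by family, position or pattern were then measured beside them.

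The cells are 1 mouse hepatoblast line that lacks p53 and overexpresses Myc, used as a culture model of hepatocellular carcinoma. The 4 groups were DMSO at 48 hours, sorafenib at 48 hours, DMSO at 7 days and sorafenib at 7 days, with sorafenib at 8.5 µM and 4 libraries in each group. All 16 libraries share p53 loss and Myc overexpression, and DMSO was the vehicle. The labels do not say whether replicates came from separate cultures, so every adjusted p-value below measures the spread between these libraries only.

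Total counts were 16586254 to 30828427 per library. Of 10 hepatoblast and liver progenitor markers, Hnf4a was at 0 in every library and Alb at 0 at 48 hours, whereas Dlk1 had 32234 ± 841 normalized counts (SD, n = 4) in DMSO at 48 hours. The summed level of the 10 markers was 34812 to 36176 in DMSO and 12246 to 14019 in sorafenib at 48 hours, and 18311 to 20169 and 6046 to 6312 at 7 days. Most of that sum was Dlk1, with 10444 ± 847 in sorafenib at 48 hours and 16766 ± 807 in DMSO and 4020 ± 84.9 in sorafenib at 7 days. Of the 8 that could be tested, 2 were higher (Sox9 and Tbx3) and 5 lower in sorafenib at 48 hours and 1 higher (Sox9) and 6 lower at 7 days. Sox9 went from 213 ± 26.6 to 664 ± 55.4 at 48 hours and from 350 ± 18.4 to 904 ± 47.4 at 7 days. Of all tested genes 26.9% were higher and 27.7% lower at 48 hours, and 28.9% and 27.9% at 7 days. In sorafenib at 48 hours replicate 2, genes of chromosomes 15 to 19 and X stood at 0.605 times their level in the other libraries relative to chromosomes 1 to 13, while the same log2 ratio lay between -0.00415 and 0.00593 in the other 15 libraries. Ppef1 on chromosome X and Cdsn on chromosome 17 lie in that region, and their values at 48 hours are given with and without that library.

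The 7 genes are better known from tissues other than the liver. Car6 encodes carbonic anhydrase VI, the secreted carbonic anhydrase of saliva, of which a stress-inducible intracellular form under the transcription factor CHOP (gene Ddit3) has also been described. Avil encodes advillin, an actin-binding protein of the gelsolin and villin family found in sensory neurons and tuft cells. Ppef1 encodes a calcium-binding EF-hand phosphatase of the PPP family, and Ppp1r16b encodes TIMAP, a targeting subunit of protein phosphatase 1 of the MYPT family best known from endothelial cells. Siglecg encodes a sialic acid-binding inhibitory receptor of B cells, Cdsn encodes corneodesmosin, the adhesive protein of cornified epidermis, and Tmem171 encodes a transmembrane protein about which little is known. RNA of such tissue-restricted genes in cultured liver cells can therefore be read against markers of the cell types in which they are usually found, and RNA-seq of a cell population cannot tell apart fewer cells of a type and less RNA per cell.

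Positions are given on GRCm39 with GENCODE vM39. Car6 lies at chr4:150271472-150285789 on the minus strand, Ppef1 at chrX:159405690-159518761 on the minus strand, Avil at chr10:126836578-126856863 on the plus strand and Siglecg at chr7:43057628-43067782 on the plus strand. Ppp1r16b lies at chr2:158507318-158608254 on the plus strand, Cdsn at chr17:35863025-35868077 on the plus strand and Tmem171 at chr13:98822743-98832198 on the minus strand. The 7 genes are on 7 different chromosomes and all are protein coding.

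RefSeq promoter sequences (GRCm38.p6) were found for 6 of the 7 genes, in 9 windows of the 250 bases before a start site, and each window was placed on GRCm39 by its only exact match. The windows of Avil, Cdsn and Ppef1 that hold no annotated exon are shown, because that of Avil holds the composite ATF4 and C/EBP element known from promoters of stress-response genes and the others give the upstream sequence of the 2 genes in the region of lowered counts. The Avil window is chr10:126836328-126836577 on the plus strand, the Cdsn window chr17:35862775-35863024 on the plus strand and the Ppef1 window chrX:159502969-159503218 on the minus strand. Capitals mark the letters of a searched motif, which is TGATGCAA at -17 to -10 from the start site in Avil and a TATA box in reverse at -244 to -239 in Ppef1.
Avil: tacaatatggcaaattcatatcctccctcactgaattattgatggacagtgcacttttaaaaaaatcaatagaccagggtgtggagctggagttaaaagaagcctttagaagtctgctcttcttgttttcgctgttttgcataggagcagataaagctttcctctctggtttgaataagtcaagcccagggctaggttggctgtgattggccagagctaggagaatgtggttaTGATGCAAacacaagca
Cdsn: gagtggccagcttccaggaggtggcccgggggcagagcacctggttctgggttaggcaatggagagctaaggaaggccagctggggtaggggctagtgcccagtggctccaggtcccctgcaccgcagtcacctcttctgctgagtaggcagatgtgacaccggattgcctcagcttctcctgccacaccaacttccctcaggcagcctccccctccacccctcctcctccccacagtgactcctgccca
Ppef1: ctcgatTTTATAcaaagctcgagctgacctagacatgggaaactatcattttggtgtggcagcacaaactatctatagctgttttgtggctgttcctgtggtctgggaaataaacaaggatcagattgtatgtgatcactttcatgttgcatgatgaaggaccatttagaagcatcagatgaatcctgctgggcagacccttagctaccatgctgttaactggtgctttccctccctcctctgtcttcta

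The search covered 6 motifs on both strands of all 32851 promoter windows of the same length, and the motifs were picked after the counts had been seen. The composite element TGATGNAA was in 3.45% of all windows and, among the 6 genes, in Avil. The E-box CACGTG was in 6.02% of windows and in Car6, at -149 to -144. In GENCODE vM39 this match lies in annotated exon, as do 197 of the 250 bases of that window. The antioxidant element TGACNNNGC was in 10.2% of windows and in both overlapping windows of Siglecg, as TGACCTAGC at -31 to -23 in one and -72 to -64 in the other. That match also lies in annotated exon, which takes up 35 bases of the first window and 76 of the other. The TATA box TATAAA was in 12.4% of windows and in Ppef1. The AP-1 letters TGANTCA, in 6.75% of windows, and the cAMP response element TGACGTCA, in 1.55%, were in none of the 9 windows. Ppp1r16b and Cdsn held none of the 6 motifs in these windows. These matches describe letters in a window and were not tested as binding sites.

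The levels of all 7 genes in DMSO at 48 hours were 0 to 5 reads per library for 5 of them and 22 to 45 for Avil and Cdsn. Normalized counts below are counts scaled by library total and TMM factor to a common depth, at which a floor of 3 reads in 1 library is worth 2.44 to 4.54. Every one of the 7 genes was higher in all 4 sorafenib libraries than in all 4 DMSO libraries of the same time point, at 48 hours and at 7 days. By edgeR's quasi-likelihood test 54.6% of tested genes were called at 48 hours (26.9% higher and 27.7% lower) and 56.8% at 7 days (28.9% higher and 27.9% lower), so a call alone separates the 7 genes little from other genes, and the choice of the 7 fixed theirs.

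**Figure D1:**
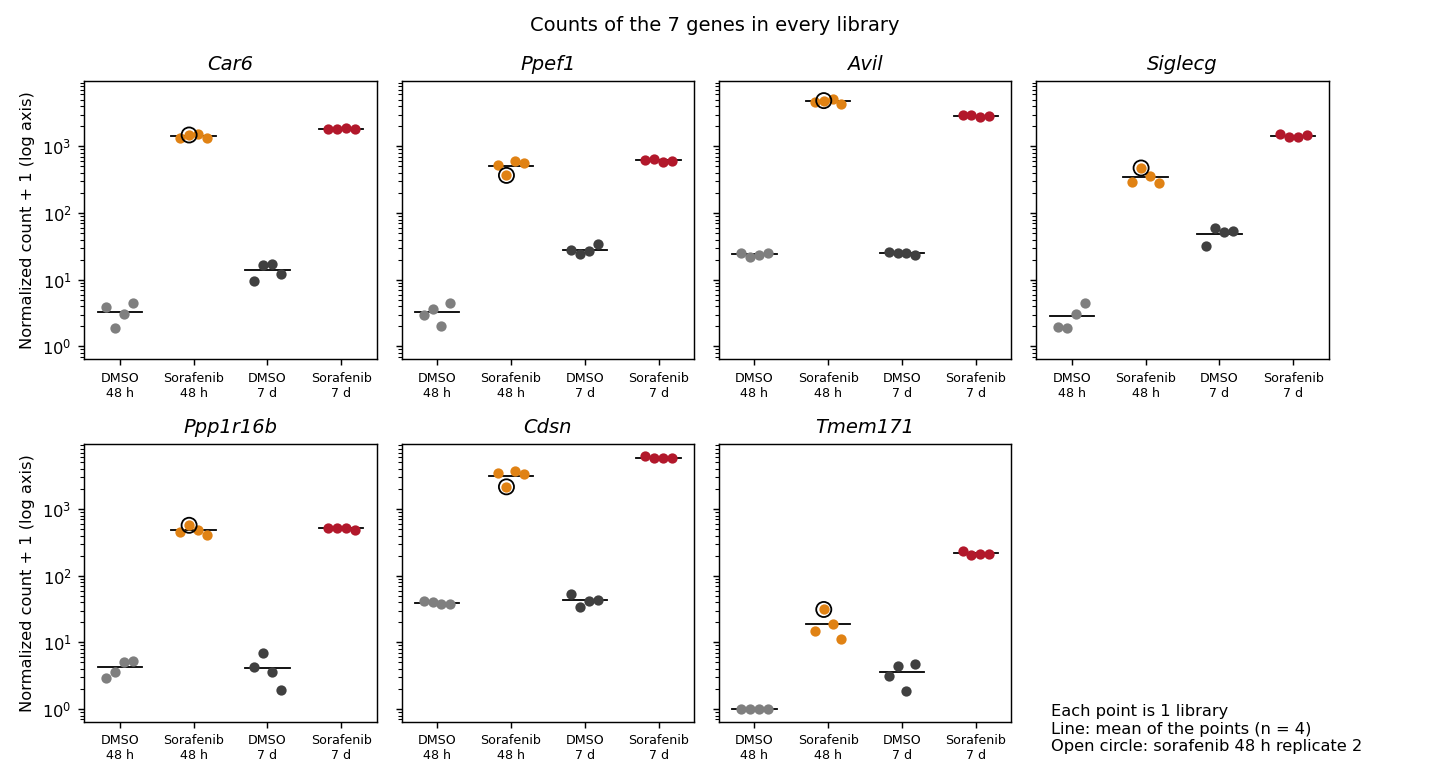
Normalized count plus 1 (log axis) of each of the 7 genes in each of the 16 libraries, 1 point per library, with the mean of 4 libraries as a line and an open circle around sorafenib 48 h replicate 2. All sorafenib points lie above all DMSO points of their time, and the circled point is the lowest of its group for Ppef1 and Cdsn and the highest for Siglecg, Ppp1r16b and Tmem171.

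Avil was the gene of the 7 with the highest mean count in sorafenib at 48 hours and the only one that stood lower after 7 days of sorafenib. It had 25, 24, 22 and 28 counts in the 4 DMSO libraries at 48 hours and 3270, 3210, 5381 and 3854 in the sorafenib libraries. At 7 days it had 23, 28, 28 and 24 counts in DMSO and 2648, 3632, 3117 and 2857 in sorafenib. The DMSO level was flat between the time points, at 23.0 ± 1.69 and 23.8 ± 1.11 normalized counts (SD, n = 4), and its libraries overlapped. In sorafenib the level was 4735 ± 323 at 48 hours and 2866 ± 119 at 7 days, a ratio of 0.605, and every 7 day library lay below every 48 hour library. The difference from DMSO was thus 206-fold at 48 hours, with a 95% counting interval of 170 to 255, and 120-fold at 7 days (99.1 to 148). Counting intervals here and below are exact intervals of the ratio of summed reads and cover counting error only.

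Car6 had the largest fitted rise of all 20444 tested genes at 48 hours and the 10th largest at 7 days. Its counts were 3, 1, 2 and 4 in DMSO and 952, 979, 1616 and 1177 in sorafenib at 48 hours, then 8, 18, 19 and 12 in DMSO and 1613, 2252, 2133 and 1882 in sorafenib at 7 days. The sorafenib level was 1423 ± 103 normalized counts at 48 hours and 1840 ± 22.8 at 7 days, 1.29-fold higher with no overlap of libraries. The fold against DMSO nevertheless went from 612 at 48 hours to 143 at 7 days, because its denominator was 2.32 ± 1.13 at 48 hours and 12.9 ± 3.64 at 7 days. Since the 48 hour denominator is a sum of 10 reads, the 48 hour ratio of summed counts, 616, has a counting interval of 335 to 1286, against 108 to 185 for the 140-fold ratio at 7 days.

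Ppp1r16b was near-silent in DMSO at both time points and nearly level in sorafenib. Its DMSO counts were 2, 3, 4 and 5 at 48 hours and 3, 7, 3 and 1 at 7 days, a sum of 14 reads each time. Its sorafenib counts were 325, 377, 508 and 364 at 48 hours and 463, 649, 602 and 496 at 7 days. In normalized counts the sorafenib level was 481 ± 66.2 and 516 ± 18.7, a ratio of 1.07 with overlapping libraries, and without sorafenib 48 h replicate 2, the highest library of its group, the ratio was 1.14 and the libraries no longer overlapped. The fold against DMSO was 148 at 48 hours (counting interval 87.2 to 269) and 162 at 7 days (94.9 to 293), so the intervals cover each other's value.

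Ppef1 was about as high at 7 days as at 48 hours in sorafenib, while its DMSO level did not stay near zero. Its DMSO counts were 2, 3, 1 and 4 at 48 hours and 25, 27, 30 and 36 at 7 days. In sorafenib it had 376, 242, 632 and 494 counts at 48 hours and 549, 800, 671 and 615 at 7 days. The 48 hour library with 242 counts is the one in which counts on chromosome X were lowered, and at 366 normalized counts it stood below the other 3, which had 528, 602 and 561. The sorafenib mean was 514 ± 103 at 48 hours with all libraries and 563 without that one, against 615 ± 26.5 at 7 days, and the libraries of the 2 time points overlapped in both cases (ratio 1.20 and 1.09). The fold against DMSO was 228 at 48 hours (counting interval 123 to 475), 249 without the lowered library, and 22.5 at 7 days (18.8 to 27.4).

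Siglecg had a higher level at 7 days in both treatments. Its counts were 1, 1, 2 and 4 in DMSO and 209, 313, 373 and 251 in sorafenib at 48 hours, then 29, 69, 58 and 56 in DMSO and 1351, 1718, 1594 and 1488 in sorafenib at 7 days. The sorafenib level was 352 ± 86.9 normalized counts at 48 hours and 1443 ± 60.5 at 7 days, 4.10-fold higher without overlap, and 4.64-fold without sorafenib 48 h replicate 2, which held the highest value of its group. The DMSO level was 1.84 ± 1.20 at 48 hours and 48.1 ± 11.8 at 7 days, a ratio of 26.2, so that the fold against DMSO was 192 at 48 hours and 30.0 at 7 days. The counting interval of the ratio of summed reads was 94.5 to 434 at 48 hours, where DMSO gave 8 reads in all, and 25.6 to 33.8 at 7 days.

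Cdsn had the highest mean count of the 7 in DMSO at 48 hours and in sorafenib at 7 days, while in DMSO at 7 days Siglecg was higher, at 48.1 ± 11.8 normalized counts. In DMSO it had 41, 45, 36 and 43 counts at 48 hours and 49, 38, 48 and 46 at 7 days, with overlapping libraries and means of 38.3 ± 1.57 and 42.4 ± 8.37 normalized counts. In sorafenib it had 2509, 1424, 3852 and 2983 counts at 48 hours and 5485, 7219, 6669 and 5840 at 7 days. The library with 1424 counts is again the one with lowered counts, here on chromosome 17, and stood at 2153 normalized counts where the other 3 had 3520, 3666 and 3388. The sorafenib mean was 3182 ± 695 at 48 hours, 3525 without that library, and 5903 ± 185 at 7 days, so the 7 day level was 1.86-fold or 1.67-fold higher and did not overlap either way. The fold against DMSO was 83.2 at 48 hours, 92.1 without the lowered library, and 139 at 7 days (counting interval 122 to 164).

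Tmem171 was the slowest of the 7 to appear. It had no read in any of the 4 DMSO libraries at 48 hours and 10, 20, 19 and 9 counts in the sorafenib libraries. At 7 days it had 2, 4, 1 and 4 counts in DMSO and 209, 252, 240 and 213 in sorafenib. Against a floor of 3 counts per DMSO library it was at least 6.49-fold higher in sorafenib at 48 hours, and at least 5.04-fold without sorafenib 48 h replicate 2, which held its highest value. At 7 days it was 84.5-fold higher (counting interval 46.7 to 169), and its sorafenib level of 215 ± 13.7 normalized counts was 11.8-fold above the 18.1 ± 8.68 at 48 hours, or 15.2-fold without that library. No fold between the DMSO libraries of the 2 time points is given, because both lie at or near the floor.

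Set side by side, 4 of the 7 genes (Car6, Siglecg, Cdsn and Tmem171) were higher in every sorafenib library at 7 days than in every one at 48 hours, 1 (Avil) was lower in every library, and Ppef1 and Ppp1r16b overlapped. Of all tested genes 16.1% were higher and 19.7% lower in every library in the same comparison. In DMSO, 4 of the 7 (Car6, Ppef1, Siglecg and Tmem171) were higher in every library at 7 days, against 24.9% of all tested genes, and none was lower in every library, against 25.9%. For Tmem171 that order rests on 11 reads. The choice of the 7 genes by their rise favours low DMSO counts. A gene with few DMSO reads at 48 hours can hardly be lower in every library at 7 days, so nothing is concluded from the DMSO shares. The rise that chose the genes also rests on their sorafenib levels, so nothing is concluded from the sorafenib shares either. Of the 6 genes with a fold at both time points, Car6, Ppef1, Siglecg and Avil had the smaller fold at 7 days and Ppp1r16b and Cdsn the larger. For Car6, Ppef1 and Siglecg the smaller fold came with a higher DMSO level and a sorafenib level that was higher or overlapping, and for Avil with a lower sorafenib level.

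**Figure D2:**
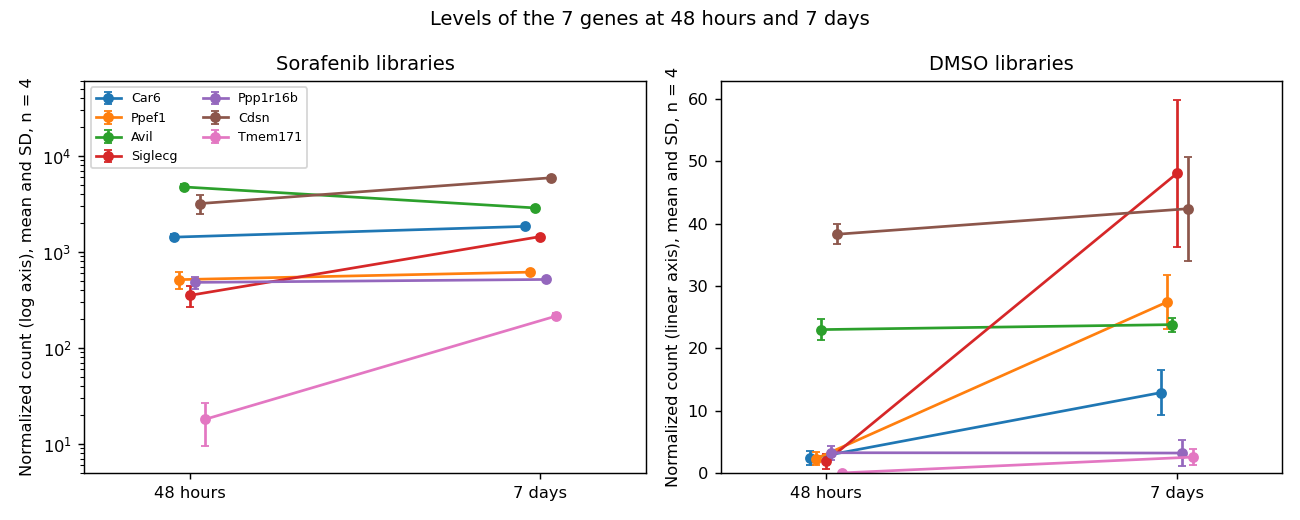
Mean normalized count with SD (n = 4 libraries) of the 7 genes at 48 hours and 7 days, in sorafenib on a log axis (left) and in DMSO on a linear axis (right), 1 colour per gene. In sorafenib Avil goes from 4735 to 2866 and Tmem171 from 18.1 to 215, and in DMSO Siglecg goes from 1.84 to 48.1 and Ppef1 from 2.26 to 27.4 while Avil and Ppp1r16b stay level.

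Levels of different genes were compared as CPM (counts scaled to a common library total) per kilobase of exon, with exon lengths from GENCODE vM39. At 48 hours of sorafenib the order was Avil (55.4 ± 3.78), Cdsn (47.3 ± 10.3), Car6 (31.2 ± 2.25), Ppef1 (6.21 ± 1.25), Siglecg (2.91 ± 0.719), Ppp1r16b (2.09 ± 0.288) and Tmem171 (0.296 ± 0.141). Avil and Cdsn overlapped between libraries, as did Siglecg and Ppp1r16b, and Cdsn overlapped Car6 through sorafenib 48 h replicate 2 alone, in which Cdsn stood at 32.0. Without that library only Avil and Cdsn overlapped among the neighbours in this order. At 7 days the order was Cdsn (87.7 ± 2.75), Car6 (40.3 ± 0.5), Avil (33.6 ± 1.39), Siglecg (11.9 ± 0.501), Ppef1 (7.43 ± 0.320), Tmem171 (3.50 ± 0.224) and Ppp1r16b (2.25 ± 0.0812), with no overlap between neighbours.

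On the same scale the 7 genes lay below the median of the tested genes in DMSO and at very different heights in sorafenib. In DMSO at 48 hours they lay above 0% (Tmem171) to 37.6% (Cdsn) of the 18035 tested genes with a position, whose median was 1.97. In sorafenib at 7 days Cdsn lay above 98.5% of them, Car6 above 95.8% and Avil above 94.6%. Siglecg lay above 82.1% and Ppef1 above 73.4%, whereas Tmem171 (59.8%) and Ppp1r16b (52.7%) stood near the middle. At 7 days a 162-fold difference from DMSO went with a level near the median for Ppp1r16b, and a 139-fold difference with a level near the top for Cdsn.

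Defining markers of the cell types in which Siglecg, Car6 and Cdsn are usually found were at or near 0, or lower in sorafenib, while the lists for Avil and Ppp1r16b were mixed. For Siglecg, the summed level of 7 leukocyte and B cell markers was 2.81 to 12.1 normalized counts over all libraries, Ms4a1 was at 0 in every group, and Ptprc and Cd22 were each at 0 or under 2 in every group mean. The 1 marker of this list that could be tested, Cd79a, was lower in sorafenib at 48 hours and not called at 7 days. For Car6, the salivary proteins Bpifa2, Lpo and Smr3a were at 0 in every group, and of the 2 salivary markers tested none was higher and 1 lower at 48 hours, and 1 was higher and 1 lower at 7 days. The summed salivary list was 280 to 318 in DMSO and 87.7 to 158 in sorafenib at 48 hours, and 236 to 295 and 134 to 182 at 7 days. Nearly all of that sum was Aqp5, which lies on chromosome 15 in the region of lowered counts. Its log2 fold change at 48 hours was -1.21 ± 0.128 with all libraries and -1.07 ± 0.102 without the lowered one. Amy1 was the marker called higher at 7 days, at 7.53 ± 3.21 against 1.41 ± 1.17 normalized counts (edgeR FDR = 0.00306). For Cdsn, the epidermal genes Krt1 and Flg were at 0 in every group, the 3 testable epidermal markers (Krt10, Lor and Ivl) were lower in sorafenib at both times, and the summed list was 285 to 312 in DMSO and 96.1 to 156 in sorafenib at 48 hours, and 236 to 282 and 116 to 139 at 7 days.

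For Ppp1r16b, the endothelial gene Tie1 was at 0 in every group and Cdh5 at 0 except for 0.644 ± 0.821 in DMSO at 7 days. Of the 3 testable endothelial markers, Kdr was higher and Tek lower at both times and Pecam1 was not called, and the summed list went from 55.7 to 98.0 in DMSO to 119 to 151 in sorafenib at 48 hours and from 36.8 to 61.3 to 196 to 228 at 7 days. For Avil, 2 of 6 sensory neuron markers were higher and 2 lower at 48 hours, and 4 were higher and 2 lower at 7 days. The neuronal filament and tubulin genes Prph and Tubb3 carried that list, whose sum was 422 to 482 in DMSO and 1443 to 2102 in sorafenib at 48 hours and 974 to 1028 and 1885 to 2017 at 7 days, while Isl1 and Scn10a were lower. Of 3 testable tuft cell markers Dclk1 was higher and the defining genes Pou2f3 and Trpm5 lower at both times, and Chat was at 0 in all groups but DMSO at 48 hours. The summed tuft cell list was 292 to 370 in DMSO and 571 to 718 in sorafenib at 48 hours, and 205 to 257 and 704 to 849 at 7 days. The part of these markers in the levels of Avil and Ppp1r16b was not tested.

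Relatives of the 7 genes, which were listed by family and not by their values here, though with earlier results of these data known, moved in both directions. Of the 45 testable genes of the 6 family lists, 16 were higher, 18 lower and 11 not called at 48 hours, and 16, 16 and 13 at 7 days, where 26.9% and 28.9% of all tested genes were higher and 27.7% and 27.9% lower. With the 18 genes of the integrated stress response list added, 32 of 63 were higher, 19 lower and 12 not called at 48 hours, and 33, 17 and 13 at 7 days, by the quasi-likelihood test of edgeR at an FDR under 0.05, adjusted after Benjamini and Hochberg over all tested genes.

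The carbonic anhydrases other than Car6, most of which interconvert carbon dioxide and bicarbonate, were more often lower than higher at 48 hours and moved in both directions at 7 days. Of 12 testable members 2 were higher and 6 lower at 48 hours, and 4 were higher and 5 lower at 7 days, with a median log2 fold change of -1.07 and 0.0955 against -0.0512 and 0.02 for all tested genes. The membrane-anchored Car4 went from 3.49 ± 1.69 in DMSO to 0 in every sorafenib library at 48 hours (edgeR FDR = 0.00113) and from 35.9 ± 4.03 to 0 at 7 days (edgeR FDR = 1.65e-08). Cytosolic Car2 was lower at both times, with log2 fold changes of -2.73 ± 0.679 (SE) and -3.04 ± 0.622. The mitochondrial Car5b, on chromosome X, was higher by a log2 fold change of 1.22 ± 0.215 at 48 hours (1.34 without the lowered library) and 3.71 ± 0.236 at 7 days, and Car7 was not called at 48 hours (edgeR FDR = 0.129) and higher by 4.01 ± 0.492 at 7 days. In sorafenib at 7 days Car5b had 116 ± 6.38 and Car7 16.8 ± 3.16 normalized counts.

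**Figure D3:**
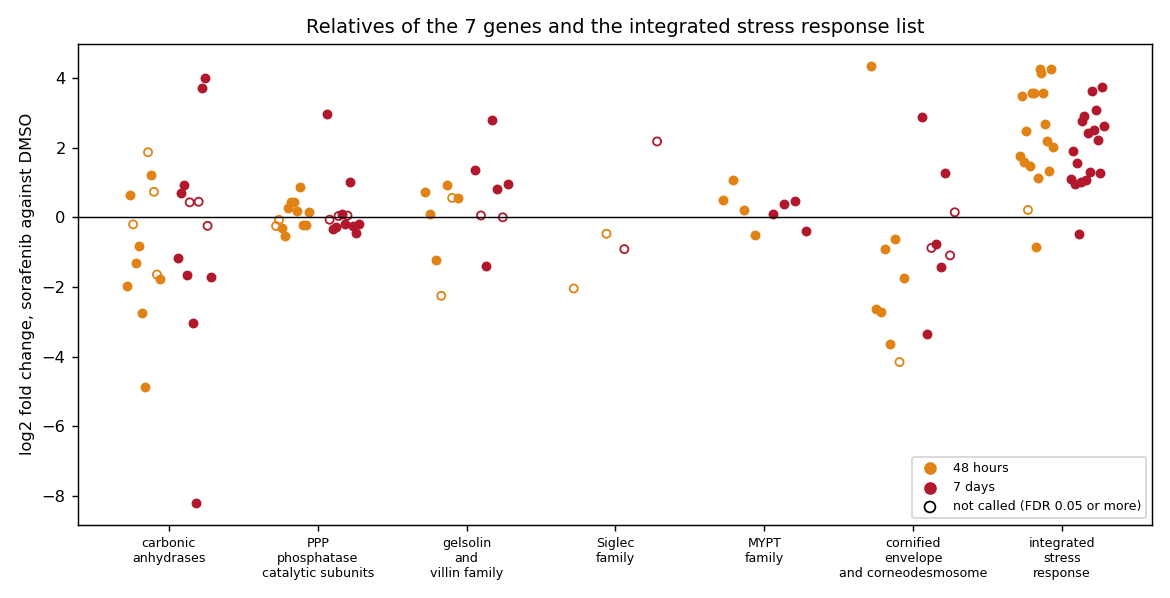
Log2 fold change of sorafenib against DMSO at 48 hours and 7 days for the testable relatives of the 7 genes and for the integrated stress response list, 1 point per gene, open where the edgeR FDR was 0.05 or more. The family lists spread on both sides of 0, whereas 16 of 18 stress response genes were higher at 48 hours and 17 of 18 at 7 days. Among all tested genes 26.9% and 28.9% were higher.

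The relatives of Ppef1, the catalytic subunits of PPP phosphatases, moved in both directions. Of 12, 6 were higher and 4 lower at 48 hours and 3 higher and 6 lower at 7 days. The shares over all tested genes were 26.9% higher and 27.7% lower at 48 hours, and 28.9% and 27.9% at 7 days. Ppef2, the closest paralog of Ppef1, was not called at 48 hours (17.4 ± 2.16 in DMSO and 15.1 ± 3.88 in sorafenib, edgeR FDR = 0.424) and was higher at 7 days, at 24.2 ± 3.51 against 2.95 ± 1.52 (edgeR FDR = 4.76e-08), a log2 fold change of 2.96 ± 0.302. The calcineurin subunit Ppp3cc was higher at both times, by 0.86 ± 0.0813 and 1.01 ± 0.0788, and Ppp1cc and Ppp5c were lower at both, by at most -0.547 on the log2 scale. Ppp3ca and Ppp6c were called higher at 48 hours and lower at 7 days, with log2 fold changes of 0.43 and -0.19 for Ppp3ca and 0.17 and -0.19 for Ppp6c.

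In the gelsolin and villin family, to which Avil belongs, 4 of 7 genes were higher and 1 lower at each time. The lower gene was the same at both times, but the 4 higher genes were not all the same. Gelsolin (Gsn), which severs and caps actin filaments, was the lower one, from 7004 ± 84.9 to 3031 ± 115 normalized counts at 48 hours and from 3950 ± 128 to 1500 ± 44.9 at 7 days. The capping protein gene Capg was higher, by log2 fold changes of 0.73 ± 0.108 and 1.36 ± 0.105, and so was Vill, by 0.56 ± 0.0876 and 0.96 ± 0.0925. Scin was called higher at 7 days only (edgeR FDR = 0.0418) at a mean of 2.28 ± 2.19 normalized counts, and the difference between its time points missed the threshold (edgeR FDR = 0.0861).

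Of the Siglec family, 2 of 8 genes in the table had enough reads to be tested, and neither Siglec1 nor Siglece was called at either time. Their means were 0.238 to 3.68 normalized counts, and the other 6 had under 10 counts in all libraries together, so Siglecg was the single family member with more than a few reads. All 4 relatives of Ppp1r16b in the MYPT family were called at both times, 3 higher and 1 lower. Among all tested genes 54.6% were called at 48 hours and 56.8% at 7 days, so these calls alone separate the 4 little from other genes. Ppp1r12a was higher by log2 fold changes of 0.50 ± 0.0373 and 0.11 ± 0.0369, Ppp1r12b by 1.08 ± 0.0437 and 0.39 ± 0.0411 and Ppp1r12c by 0.20 ± 0.0369 and 0.47 ± 0.0365. The closest paralog of Ppp1r16b, Ppp1r16a, was the lower one, at 857 ± 88.3 against 594 ± 93.7 at 48 hours and 767 ± 26.5 against 585 ± 37.4 at 7 days. It lies on chromosome 15, and its log2 fold change at 48 hours was -0.52 ± 0.0882 with all libraries and -0.42 ± 0.06 without the lowered one.

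Genes of the cornified envelope and corneodesmosome, the structure that Cdsn serves in skin, were mostly lower or absent. Of 15 genes 8 could be tested, of which 1 was higher and 6 lower at 48 hours and 2 higher and 3 lower at 7 days. Loricrin (Lor) went from 65.3 ± 4.46 to 5.14 ± 3.81 at 48 hours and from 24.9 ± 6.45 to 9.01 ± 1.65 at 7 days, and involucrin (Ivl) was lower by log2 fold changes of -2.62 ± 0.598 and -3.36 ± 0.413. The protease Klk14, which cleaves corneodesmosomal proteins, was lower at 48 hours (-2.72 ± 0.748) and not called at 7 days. The desmosomal cadherin gene Dsc1 was higher at both times but reached only 4.21 ± 1.44 normalized counts.

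The integrated stress response, in which ATF4 and CHOP raise genes of amino acid supply and of the response to unfolded protein, was the list in which nearly all members were higher. Of 18 genes, 16 were higher and 1 lower (Ddit4) at 48 hours and 17 higher and 1 lower (Cebpb) at 7 days, with median log2 fold changes of 2.33 and 2.06. Among all tested genes 26.9% were higher at 48 hours and 28.9% at 7 days. The list was drawn up with earlier results of these data known, so its counts are a description. Trib3, a pseudokinase induced by CHOP, went from 294 ± 14.6 to 5666 ± 319 at 48 hours and from 361 ± 23.7 to 4844 ± 129 at 7 days, and Chac1, which degrades glutathione, was higher by 3.58 ± 0.0741 and 2.76 ± 0.0693 on the log2 scale. The hormone genes Fgf21 and Gdf15 were higher by 4.27 ± 0.229 and 4.13 ± 0.539 at 48 hours and by 1.31 ± 0.282 and 3.64 ± 0.433 at 7 days. Ddit3 itself, named here for its described link to Car6 and outside the rule for named genes, had 276 ± 16.2 and 3271 ± 195 normalized counts at 48 hours and 393 ± 11.3 and 2941 ± 57.6 at 7 days. Ddit4 was lower at 48 hours and higher at 7 days, with log2 fold changes of -0.86 ± 0.0732 and 1.07 ± 0.0783. Car6 and Ddit3 were both high at both times, and whether one depends on the other was not tested.

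The genes beside the 7 on their chromosomes were measured to see whether the rise covered a stretch of chromosome or the gene alone. Of 29 neighbours, the nearest protein-coding genes with a row on either side and any row that overlaps, 22 could be tested, of which 4 were higher, 8 lower and 10 not called at 48 hours and 5 higher, 8 lower and 9 not called at 7 days. Their median log2 fold change was -0.117 at 48 hours and -0.148 at 7 days. Among all tested genes 26.9% were higher at 48 hours and 28.9% at 7 days, so neighbours were not called higher at a greater share.

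The 1 neighbour with a log2 fold change over 1 at both times was Foxd1, a forkhead transcription factor gene 326930 bp from Tmem171. It had 0.5 ± 0.577 and 9.36 ± 3.78 normalized counts at 48 hours (edgeR FDR = 1.61e-05) and 1.63 ± 1.39 and 40.2 ± 4.68 at 7 days (edgeR FDR = 1.27e-09), so like Tmem171 it was low at 48 hours and higher at 7 days in sorafenib. The nearer neighbour Fcho2, 27709 bp from Tmem171, was not called at 48 hours and higher by 0.13 ± 0.0368 at 7 days, and Tmem174 had no reads. Beside Car6, Eno1, the glycolytic enolase gene 35284 bp away, went the other way, from 40502 ± 999 to 22779 ± 1671 at 48 hours (edgeR FDR = 2.15e-13), and was not called at 7 days. Beside Ppp1r16b, Actr5, Fam83d and Dhx35 were lower at both times, Fam83d at 1755 bp by -0.27 ± 0.0448 and -0.67 ± 0.0444. Beside Siglecg, Siglecf, Gm38999 and Lim2 had under 10 counts in all libraries together, and Zfp715 was not called.

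Beside Ppef1 and Cdsn the neighbours share the region of lowered counts. With all libraries Phka2, 23814 bp from Ppef1, was lower and Adgrg2 not called at 48 hours. Without the lowered library Adgrg2 was called higher, by 0.16 ± 0.0609 (edgeR FDR = 0.0185), against 7.86 for Ppef1 in the same fit. Beside Cdsn, Psors1c2 at 17481 bp was lower at 48 hours with all libraries (-0.63 ± 0.244, edgeR FDR = 0.0348), was not called without the lowered library (-0.47, edgeR FDR = 0.139) and was higher at 7 days by 1.27 ± 0.197. Cchcr1 was lower at 48 hours with that library (-0.27 ± 0.0808) and without it (-0.17 ± 0.0484), and higher at 7 days by 0.39 ± 0.0794.

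Avil shares 9423 bp of its gene body with Tsfm on the opposite strand, a mitochondrial translation elongation factor gene, and 165 of its 3398 exon bases, or 4.86%, are also Tsfm exon. Tsfm had 663 ± 44.9 and 854 ± 35.9 normalized counts at 48 hours (edgeR FDR = 9.99e-06) and 758 ± 38.3 and 823 ± 40.5 at 7 days (edgeR FDR = 0.0617). The strand setting of the counting is not given in the sources used here, so reads in the shared bases could have been assigned to either gene or to none. The other neighbour of Avil at close range, Ctdsp2 at 734 bp, was lower at both times by -0.39 ± 0.0318 and -0.38 ± 0.0319.

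**Figure D4:**
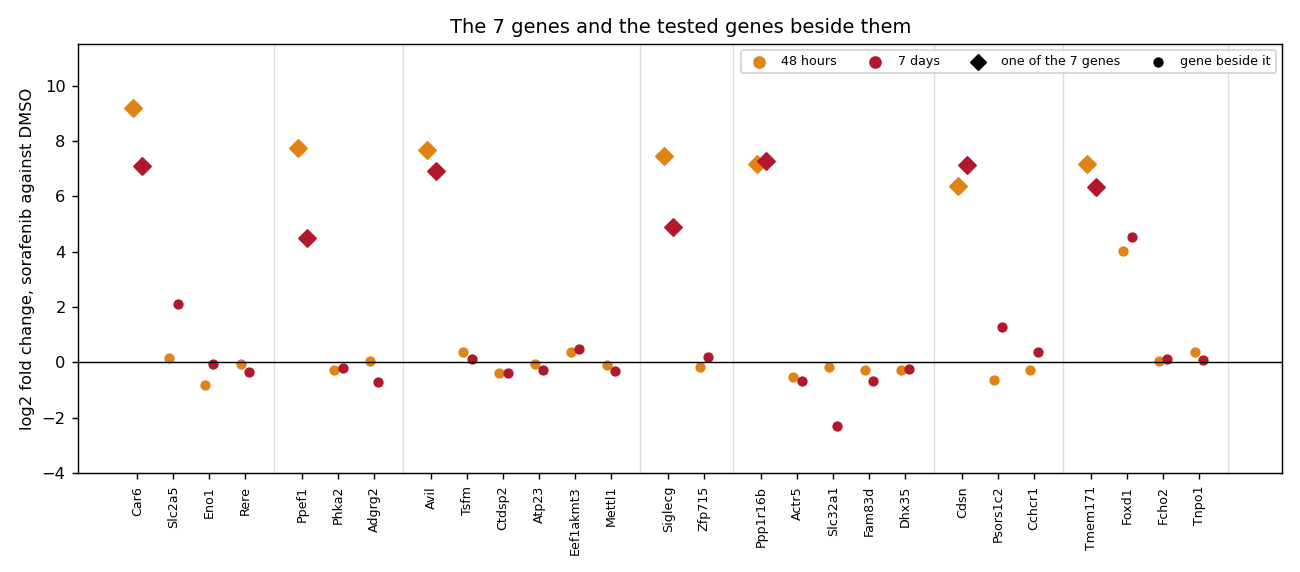
Log2 fold change of sorafenib against DMSO (edgeR) at 48 hours and 7 days for the 7 genes (diamonds) and for 20 of the 22 tested genes beside them (circles). Apart from Foxd1 beside Tmem171, and the low-count Slc2a5 and Slc32a1 and Psors1c2 at 7 days, the neighbours shown lie within 1 of 0, and the fitted value of Tmem171 at 48 hours rests on DMSO libraries without reads and is no bound.

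To see how rare such genes were and how lasting the rise of a gene of this kind was, genes were called switched on where the DMSO mean was under 10 and the sorafenib mean at least 50 normalized counts. That held for 60 genes at 48 hours, 0.147% of the 40840 in the table, and for 69 genes at 7 days (0.169%). Car6, Ppef1, Siglecg and Ppp1r16b were among the 60, and Ppp1r16b and Tmem171 among the 69. Avil and Cdsn were in neither, as their DMSO means of 23.0 to 42.4 exceed the limit. Ppp1r16b was the only one of the 7 in both, and 15 genes in all were in both, which is 25% of the first list and 21.7% of the second.

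The 2 contrasts share no library, so genes chosen at one time were tested at the other. All 60 genes switched on at 48 hours were called higher at 7 days, against 28.9% of all tested genes. Their median log2 fold change was 3.49, and without the 7 genes 56 of 56 were called higher with a median of 3.36. Of the 69 switched on at 7 days, 59 were called higher at 48 hours, against 26.9% of all tested genes, and 10 were not called. Their median was 3.00, and without the 7 genes 57 of 67 were called higher with a median of 2.90. Of the 45 genes in the 48 hour list alone, 38 missed the 7 day list only because their DMSO level at 7 days was 10 or more, as for Car6, Ppef1 and Siglecg, and 4 only because sorafenib was under 50. Of the 54 in the 7 day list alone, 34 missed the 48 hour list only because sorafenib was under 50, as for Tmem171, and 11 only because DMSO was 10 or more.

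By normalized count in sorafenib, the first 10 genes of the 48 hour list were Car6, Ppef1, Ppp1r16b, Serpinb9b, Siglecg, Dhrs9, Gpnmb, Cox6a2, Taf7l and Rerg. Serpinb9b, a serine protease inhibitor gene, had the pattern of Siglecg, with 2.02 ± 1.78 and 401 ± 33.2 normalized counts at 48 hours and 20 ± 3.31 and 1262 ± 97.7 at 7 days. Cox6a2, the muscle form of a cytochrome c oxidase subunit, was as level as Ppp1r16b, with 4.70 ± 2.06 and 285 ± 7.79 at 48 hours and 5.76 ± 3.18 and 274 ± 17.4 at 7 days. At 7 days the first 10 were Ppp1r16b, Taf7l, Cox6a2, Itih2, Shroom1, Tmem171, Gm34804, Fam71f1, Glrb and Clic5. Taf7l, a germ cell transcription factor subunit gene on chromosome X, had 2.08 ± 1.77 and 279 ± 67.3 at 48 hours and 4.05 ± 2.27 and 300 ± 7.87 at 7 days. The opposite class, at least 50 in DMSO and under 10 in sorafenib, held 45 genes at 48 hours and 90 at 7 days, 16 of them in both, and 41 of the 45 and 86 of the 90 were called lower at the other time. Of all tested genes 27.9% were called lower at 7 days and 27.7% at 48 hours.

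**Figure D5:**
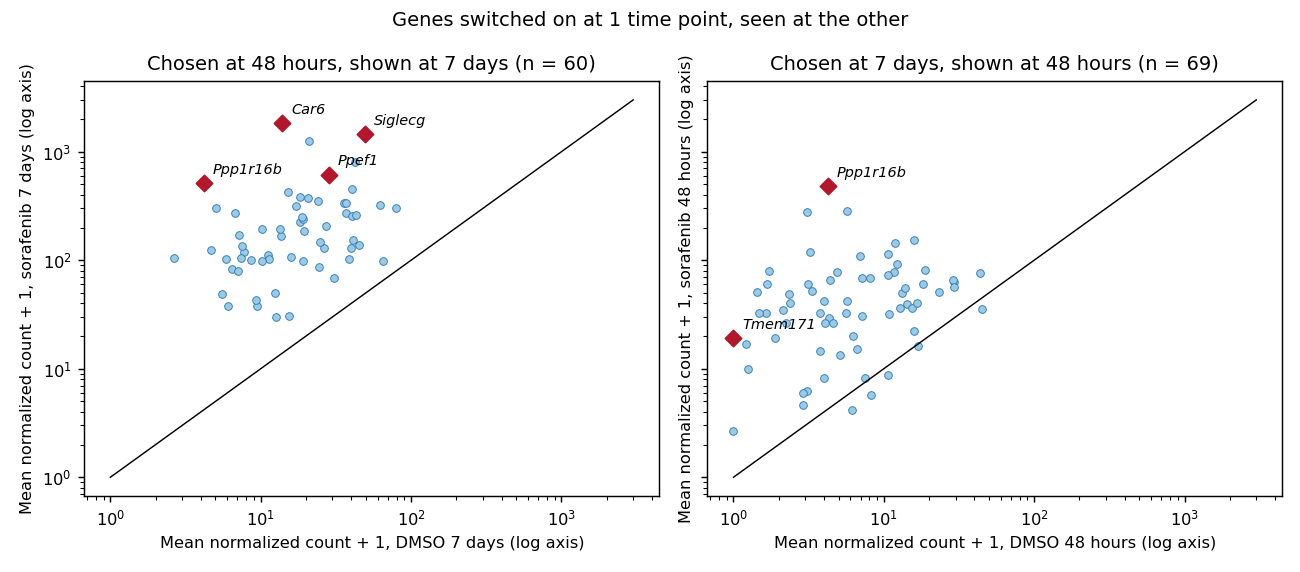
Mean normalized count plus 1 (log axes) in DMSO and sorafenib at 7 days for the 60 genes switched on at 48 hours (left) and at 48 hours for the 69 genes switched on at 7 days (right), with the line of equal levels and those of the 7 genes in each list as diamonds. All 60 points lie above the line on the left, with Car6 and Siglecg the highest. On the right 59 of 69 genes were called higher, against 26.9% of all tested genes, and Ppp1r16b is the highest.

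The genes most like each of the 7 over the 15 libraries without sorafenib 48 h replicate 2 were well expressed genes with much smaller changes. Likeness was Pearson's r of log2 CPM, which is large for any gene that follows the 4 groups, and it is given as a description. The nearest to Car6 was Tpm2 (r = 0.998), a tropomyosin gene, with 1778 ± 100 and 5783 ± 158 normalized counts at 48 hours and 2281 ± 65.4 and 6455 ± 155 at 7 days, followed by Vat1 (0.997). Ppef1 was most like Adam9 and the asparagine synthetase gene Asns (0.997 each), and Asns had 2895 ± 26.3 and 9836 ± 329 at 48 hours and 4569 ± 62.1 and 9745 ± 30.7 at 7 days, so its DMSO level also was higher at 7 days. Avil was most like Emp2 (1.00) and Tbc1d31 (0.999), and Ppp1r16b like Lhfpl2 and Swap70 (0.996 each). Among the genes most like Siglecg was Pea15a (0.998), with 1191 ± 78.6 and 3190 ± 183 at 48 hours and 2187 ± 106 and 4347 ± 128 at 7 days. Cdsn was most like Nfu1 (0.998) and Ppp1r15a (0.997), a stress response phosphatase subunit with 406 ± 10 and 2615 ± 225 at 48 hours and 393 ± 27.1 and 3354 ± 56.0 at 7 days, and Tmem171 like Mfsd11 and Kctd9 (0.993 each).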

How the data were processed

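RNA of p53-/-; Myc hepatoblasts was sequenced by the authors from Illumina stranded mRNA libraries. The submitters' processing notes name STAR 2.7.1a, featureCounts 2.0.6 and DESeq2 1.40.2 with GRCm39. The deposited values are raw counts per gene, with no normalization or pooling. The gene annotation and the strand setting of the counting are not given in the sources used here.

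From these counts, genes with fewer than 10 counts over all libraries were removed (20396 of 40840), and the other 20444 entered edgeR 4.0.16 under R 4.3.3 (quasi-likelihood test, TMM, 1 model with a coefficient per group, no block). Calls are at a Benjamini-Hochberg FDR under 0.05 over all tested genes. Normalized counts are counts divided by library total and TMM factor, on a common depth. Correlations used log2 CPM with a prior count of 2. The fit was tested on simulated data. No 2 libraries agreed within sampling noise.

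Groups came from the labels. The 7 genes and all lists were chosen with earlier results of these data known. Named were the 7 genes; up to 4 members of each of 7 relative lists with the largest absolute log2 fold change among those called, and any called in opposite directions at the 2 times; all neighbours (2 per side); the 2 most similar genes of each; and the 10 switched-on genes with the highest sorafenib mean. Markers were 7 lists (hepatoblast, leukocyte, sensory neuron, tuft cell, endothelial, salivary, epidermis). Alternatives were a DESeq2 1.42.0 test, its size factors, total counts, other filters, a replicate block, each time point alone, each library left out, a fold limit and other limits for switched-on genes. Depth was 16586254 to 30828427 counts per library, and the floor of 3 counts covers counting error only. No columns of the authors' own comparisons were used. No protein sequences were used here. Values of a few genes of these lists are not reported here, though the counts over each list include them.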

Additional observations from a re-analysis of the deposited data

Results flagged for a closer look

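Of 27 groups of 4 libraries examined for the 7 genes, 1 held a library far from the rest of its group: Ppp1r16b in sorafenib 7 d replicate 4 had 488 normalized counts where the others had 521, 527 and 527. The gap exceeded Dixon's 95% critical value for 4 samples. Chance flags about 1 in 20 groups. The distance from DMSO, at 0.928 to 6, was not touched by it.

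Among relatives and neighbours, 5 genes were called in opposite directions at the 2 time points and differed between them in edgeR's test of the interaction of treatment and time with Benjamini-Hochberg adjustment. The log2 fold change at 7 days minus that at 48 hours was -0.616 for Ppp3ca (edgeR FDR = 2.56e-08) and -0.353 for Ppp6c (edgeR FDR = 3.92e-05), both phosphatase catalytic subunits like Ppef1. It was 1.93 for the stress response gene Ddit4 (edgeR FDR = 2.02e-11), whose DMSO level went from 6094 ± 312 at 48 hours to 929 ± 148 at 7 days (SD, n = 4). For the neighbours of Cdsn it was 1.90 for Psors1c2 (edgeR FDR = 6.24e-05) and 0.666 for Cchcr1 (edgeR FDR = 8.77e-05). Without sorafenib 48 h replicate 2 these were 1.74 and 0.563 (edgeR FDR = 3.05e-05 and 3.11e-10), and Psors1c2 was then not called at 48 hours.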

How the results depend on the processing

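No log2 fold or ratio of the 7 genes changed direction, and none moved by more than the spread between replicates, in 230 comparisons (DESeq2 size factors, total counts only, a pseudocount of 0.5 and each library left out); no other filter was tried on them. With a further limit of an absolute log2 fold change of 1, genes called went from 11158 to 3690 at 48 hours and from 11613 to 4202 at 7 days, relatives and stress response genes called from 51 to 29 and from 50 to 32, and neighbours called from 12 to 1 and from 13 to 2, which follows from the limit itself. Leaving out 1 library at a time gave 10609 to 11608 genes called at 48 hours and 10981 to 12590 at 7 days, 48 to 51 and 47 to 52 relatives, 10 to 15 and 13 to 18 neighbours, 54 to 61 genes switched on at 48 hours that were called higher at 7 days and 52 to 61 of the reverse. Of the 14 genes with the most similar pattern, 8 were again named with all 16 libraries, and the cause was not tested.

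A filter of at least 10 counts in every sample removed every switched-on gene, so it gave no value for them. Same-numbered replicates deviated together in some pairs at 7 days and in none at 48 hours (correlations -0.0486, 0.00577, -0.00192 and 0.0118 at 48 hours, and -0.00477, 0.0563, 0.127 and 0.108 at 7 days, over 10660 genes), so the numbers were not taken as pairs. With a replicate block 10644 and 11027 genes, 48 and 49 relatives and 10 and 13 neighbours were called, and 60 and 59 switched-on genes were called higher at the other time. Counts near or under 3 in the DMSO libraries limit the folds of Car6, Ppef1 and Siglecg at 48 hours and of Ppp1r16b and Tmem171 at both times.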
